A study of Homo sapiens with 6 samples.

Results

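The 37 genes of the mitochondrial genome were followed in HEK293T cells that expressed a control shRNA or an shRNA against *RREB1*. They were taken as every gene on the mitochondrial chromosome, by their symbols starting with MT-, and made up 37 of the 55767 gene symbols counted. They comprise 13 coding genes, 22 tRNA genes and 2 rRNA genes. HEK293T is a human embryonic kidney line that carries the SV40 large T antigen. *RREB1* is a zinc finger transcription factor that binds RAS-responsive DNA elements. The sh-control group held 3 libraries from cells with a nonspecific shRNA, and the sh-RREB1 group held 3 libraries from cells with an shRNA targeting *RREB1*. According to the study's methods both shRNAs came from pLKO.1 lentiviral vectors and the infected cells were selected as stable lines in neomycin, and whether a line was a clone or a mixed population is not stated. The sample labels name HEK293T and the series' design text names HEK293, and no label says whether the replicates were separate cultures, so the p-values measure only the spread between these libraries, which may be technical.

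Mitochondrial DNA is transcribed from both strands into long precursor RNAs by the polymerase *POLRMT* with its factors *TFAM* and *TFB2M*. Most mRNAs and rRNAs are flanked by tRNAs, and excision of these tRNAs by RNase P (*TRMT10C*, *HSD17B10* and *PRORP*) and by *ELAC2* releases the mature RNAs. The mRNAs are then held and polyadenylated with the LRPPRC-SLIRP complex, and noncoding RNA from the opposite strand is cleared by the helicase *SUPV3L1* with the exonuclease *PNPT1*. All 13 proteins made from these genes are subunits of the respiratory chain or of the ATP synthase.

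On the reference chromosome of 16569 bases (hg38, with gene positions from Gencode), 12 coding genes and 14 tRNA genes lie on the plus strand, while *MT-ND6* and 8 tRNA genes lie on the minus strand. The genes touch or overlap, which fixes what a read count can show here, because a read that overlaps more than 1 gene on its strand was given to none of them. The longer coding overlaps are printed here as the plus strand, at chrM:8515-8584 and chrM:10748-10778, with the bases that belong to both genes in capitals. *MT-ATP8* and *MT-ATP6* share 46 bases and *MT-ND4L* and *MT-ND4* share 7, while *MT-ATP6* and *MT-CO3* share 1.
MT-ATP8 and MT-ATP6: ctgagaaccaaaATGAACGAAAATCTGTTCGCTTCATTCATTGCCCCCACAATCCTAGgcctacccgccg
MT-ND4L and MT-ND4: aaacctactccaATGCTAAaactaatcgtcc

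At 6 coding genes the annotated mRNA ends on an incomplete stop codon and the next base opens a tRNA gene, and polyadenylation of the excised mRNA is known to complete such codons. The boundaries are shown from 5′ to 3′ on the plus strand, with the bases of the incomplete last codon in capitals, since these are the places where an uncut precursor and a cut mRNA differ. They lie at chrM:4245-4280, chrM:5494-5529, chrM:9973-10008, chrM:10387-10422, chrM:12120-12155 and chrM:15870-15905.
MT-ND1 to MT-TI: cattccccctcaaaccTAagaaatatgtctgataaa
MT-ND2 to MT-TW: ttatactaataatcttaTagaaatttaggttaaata
MT-CO3 to MT-TG: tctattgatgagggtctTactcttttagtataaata
MT-ND3 to MT-TR: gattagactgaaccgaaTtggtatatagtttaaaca
MT-ND4 to MT-TH: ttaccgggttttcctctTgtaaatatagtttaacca
MT-CYB to MT-TT: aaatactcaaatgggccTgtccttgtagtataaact

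The other boundary the results turn on is that of *MT-TE*, the gene of the glutamate tRNA on the minus strand (chrM:14674-14742), and *MT-CYB* on the plus strand, with 4 bases between the genes. The plus strand from the far end of *MT-TE* into *MT-CYB* (chrM:14674-14767) is shown first, with *MT-CYB* in capitals, and the tRNA's own strand second.
opposite strand of MT-TE into MT-CYB: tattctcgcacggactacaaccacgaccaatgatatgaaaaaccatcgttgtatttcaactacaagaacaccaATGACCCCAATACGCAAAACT
MT-TE: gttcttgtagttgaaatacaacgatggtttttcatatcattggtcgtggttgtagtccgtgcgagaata

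The libraries held 12257054 to 33044061 reads on genes in the sense direction, the fewest in sh-RREB1 replicate 3, where 52.1% of aligned reads fell at more than 1 position against 3.66% to 7.63% in the other libraries. For the mitochondrial mRNAs the library that stood apart was sh-control replicate 1, so results that change most without either library are given with and without it. *RREB1* itself, the targeted gene, had 624, 684 and 853 reads in sh-control against 589, 644 and 292 in sh-RREB1, a log2 fold change of −0.14 (SE 0.13, adjusted p = 0.486), so the libraries below are called by their labels. Of the markers linked with HEK293 cells, *VIM*, *KRT8*, *KRT18*, *NEFM* and *INA* had 255 to 16114 reads in each library, and the kidney factor *PAX2* had 3 in each sh-control library and 6 to 10 in sh-RREB1. *VIM* (log2 fold change 0.75, adjusted p = 0.00391) and *PAX2* (1.76, adjusted p = 0.0338) rose in sh-RREB1. The *PAX2* change was 0.78 (adjusted p = 0.398) with an offset for GC content and length. Its adjusted p was below 0.05 in only 1 of the 6 fits that left out a single library. Of the markers of other cell types, *HBA1* and *CD3E* had 0 reads, *PTPRC* 0 to 5, *PECAM1* 0 to 4 and *ALB* 0 to 16, while the fibroblast collagen *COL1A1* had 8 to 22 reads in sh-control and 12 to 69 in sh-RREB1 (log2 fold change 2.0, adjusted p = 0.0132), and the part of these markers in the results was not tested.

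The mitochondrial mRNAs were abundant and strongly graded, and their sense levels did not pass the test for a difference between sh-RREB1 and sh-control for any of the 13 coding genes. In the order of replicates 1, 2 and 3, kept for all values by library, they took 0.887%, 0.635% and 0.588% of all gene reads in the sh-control libraries and 0.704%, 0.656% and 0.680% in the sh-RREB1 libraries. The sh-control library of replicate 1 was the highest of all 6 and the sh-RREB1 libraries lay between it and the other sh-control libraries. The mean was 0.703% ± 0.161 (SD, n = 3) in sh-control and 0.680% ± 0.024 (SD, n = 3) in sh-RREB1, a difference of −0.023 percentage points with a two-sided exact permutation p of 1, where 0.1 is the smallest p that 3 against 3 allows. Without sh-control replicate 1 the difference was 0.068 percentage points, in the other direction. In bulk RNA, a difference in every cell and a difference in only part of the cells cannot be told apart.

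The complex IV mRNAs led the order of levels. Per kilobase of gene, in reads per 1000000 reads counted (CPM), the 3 cytochrome c oxidase subunits of complex IV led, with sh-control means of 2673 for *MT-CO3*, 1860 for *MT-CO1* and 1508 for *MT-CO2*, and sh-RREB1 means of 2403, 1597 and 1340. *MT-ND3* followed at 513 and 555 CPM per kilobase in sh-control and sh-RREB1. A middle tier held *MT-ATP6* (270 and 291), *MT-CYB* (223 and 231), *MT-ND4* (195 and 200) and *MT-ND4L* (154 and 175), all in CPM per kilobase in the same order. The lowest tier held *MT-ND2* (90.5 and 94.1), *MT-ND1* (66.95 and 80.7), *MT-ND5* (65.1 and 83.4), *MT-ATP8* (54.0 and 86.1) and *MT-ND6* (50.5 and 68.5), in CPM per kilobase. In sh-control the ranges over libraries overlapped for all neighbours in this order except *MT-CO3* with *MT-CO1* and *MT-CO2* with *MT-ND3*, and in sh-RREB1 they overlapped for *MT-CYB* with *MT-ND4*, *MT-ND4* with *MT-ND4L* and the neighbours within the lowest tier. The values of *MT-ATP8* and *MT-ND4L* leave out reads that reach into the overlapping gene, which weighs more on such short genes. Reads that fit a nuclear copy of mitochondrial sequence equally well are left out for any gene, and how this bears on the order was not tested.

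**Figure D1:**
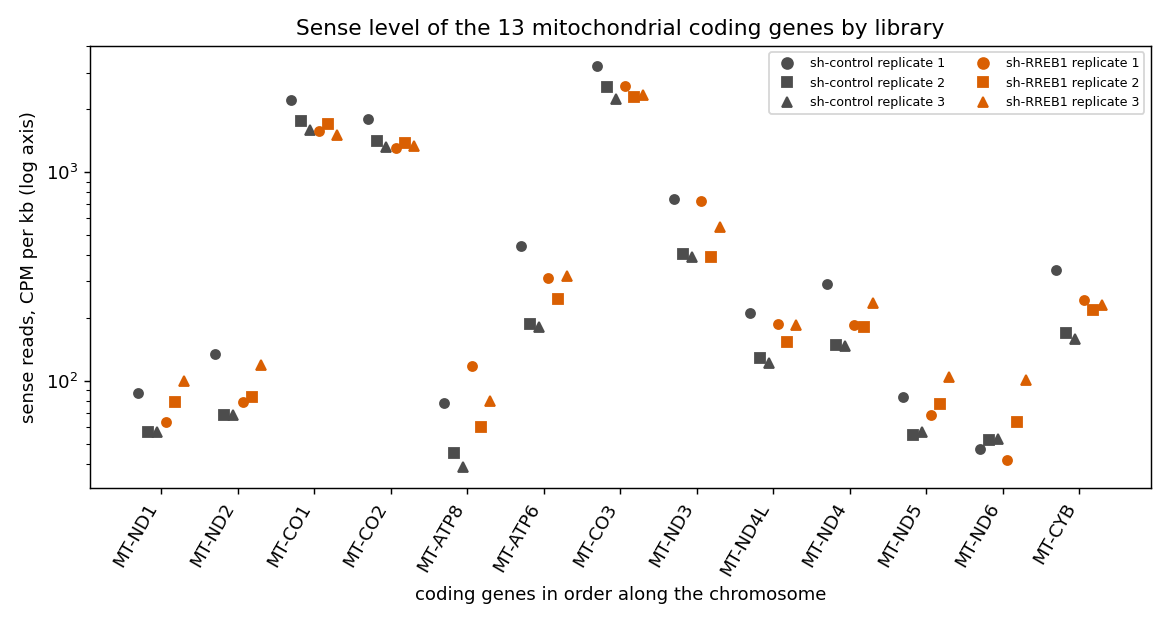
Sense level of the 13 coding genes of the mitochondrial genome in each library, in CPM per kilobase on a log axis, with a point per library. MT-CO3 is highest at group means of 2673 and 2403 and MT-ND6 lowest at 50.5 and 68.5, and for each gene the sh-control and sh-RREB1 points overlap.

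The complex IV mRNAs had the lower mean in sh-RREB1, by a margin that rested in large part on sh-control replicate 1. *MT-CO1*, which encodes the catalytic subunit with the oxygen-reducing site, stood at 3432, 2706 and 2465 CPM across sh-control against 2433, 2626 and 2328 CPM across sh-RREB1. *MT-CO2*, the subunit that takes up electrons from cytochrome c, stood at 1229, 965 and 899 CPM across sh-control against 893, 941 and 917 CPM across sh-RREB1. *MT-CO3*, the third core subunit, stood at 2528, 2013 and 1747 CPM across sh-control against 2021, 1794 and 1837 CPM across sh-RREB1. For each of these genes sh-control replicate 1 was the highest library and the groups overlapped. The log2 fold changes were −0.22 (SE 0.14, adjusted p = 0.295) for *MT-CO1*, −0.17 (SE 0.13, adjusted p = 0.398) for *MT-CO2* and −0.15 (SE 0.14, adjusted p = 0.496) for *MT-CO3*. Without sh-control replicate 1 they were −0.10 (adjusted p = 0.496), −0.06 (adjusted p = 0.736) and −0.03 (adjusted p = 0.897). The 95% interval for *MT-CO1* over all 6 libraries ran from −0.53 to 0.09 on the log2 scale.

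The ATP synthase and complex III mRNAs had higher means in sh-RREB1. *MT-ATP6*, which lines the proton path of the ATP synthase, stood at 301, 127 and 124 CPM across sh-control against 212, 167 and 216 CPM across sh-RREB1, where sh-control replicate 1 was the highest library and the other sh-control libraries were the lowest. Its log2 fold change was 0.11 (SE 0.32, adjusted p = 0.846). *MT-ATP8*, the short subunit read from the same mRNA, stood at 16.3, 9.31 and 7.95 CPM across sh-control against 24.5, 12.5 and 16.6 CPM across sh-RREB1, with a log2 fold change of 0.68 (SE 0.32, adjusted p = 0.171), the largest of the 13. *MT-CYB*, the cytochrome b of complex III, stood at 389, 193 and 181 CPM across sh-control against 279, 249 and 262 CPM across sh-RREB1. Its log2 fold change was 0.05 (SE 0.26, adjusted p = 0.917), and again the sh-control values lay on both sides of the sh-RREB1 values.

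The 7 complex I genes, subunits of the NADH dehydrogenase, all had positive log2 fold changes, from 0.04 to 0.43, and none passed the test. *MT-ND1* stood at 83.5, 54.2 and 54.4 CPM across sh-control against 60.4, 76.0 and 95.01 CPM across sh-RREB1 (log2 fold change 0.27, SE 0.21, adjusted p = 0.424). *MT-ND2* stood at 141, 71.3 and 71.03 CPM against 82.9, 87.2 and 124 CPM (0.06, SE 0.28, adjusted p = 0.913). For both genes sh-control replicates 2 and 3 were the lowest libraries, and sh-control replicate 1 lay among or above the sh-RREB1 libraries. *MT-ND3* stood at 257, 140 and 136 CPM against 252, 135 and 189 CPM (0.11, SE 0.28, adjusted p = 0.821). *MT-ND4L* stood at 63.0, 38.2 and 36.3 CPM against 55.4, 45.5 and 55.0 CPM (0.18, SE 0.21, adjusted p = 0.604). *MT-ND4*, read from the same mRNA as *MT-ND4L*, was highest in sh-control replicate 1, and its values were 399, 205 and 202 CPM against 255, 249 and 323 CPM (0.04, SE 0.25, adjusted p = 0.936).

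Of the remaining complex I genes, *MT-ND5* stood at 152, 99.6 and 102 CPM across sh-control against 124, 140 and 189 CPM across sh-RREB1 (log2 fold change 0.36, SE 0.20, adjusted p = 0.257). *MT-ND6*, the only coding gene on the minus strand, stood at 24.6, 27.3 and 27.6 CPM across sh-control against 21.9, 33.2 and 52.8 CPM across sh-RREB1 (0.43, SE 0.28, adjusted p = 0.310). *MT-ND6* was the coding gene with the smallest spread within sh-control and the widest range within sh-RREB1 relative to its level, the highest value being in sh-RREB1 replicate 3.

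Across all genes tested, 3.41% passed the study's thresholds of an adjusted p below 0.01 with an absolute log2 fold change above 1, 19.6% had an adjusted p below 0.05, and 41.1% had CPM values that did not overlap between the groups. Of the 13 coding genes, 0 passed either threshold with edgeR, 0 had an unadjusted p below 0.05, 0 had an adjusted p below 0.05 with DESeq2, and 0 had groups that did not overlap. Their log2 fold changes were positive for 10 and negative for 3, with a median of 0.11 against 0.01 over all genes tested, and the 95% intervals over the 13 reached from −0.61 to 1.41. Without sh-control replicate 1, *MT-ATP8* (log2 fold change 1.02, adjusted p = 0.0235), *MT-ATP6* (0.63, adjusted p = 0.0147) and *MT-CYB* (0.46, adjusted p = 0.0194) had an adjusted p below 0.05 and the median over the coding genes was 0.45. With an offset for GC content and length, *MT-ATP8* (0.94, adjusted p = 0.0108) and *MT-ND5* (0.54, adjusted p = 0.0415) did.

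**Figure D2:**
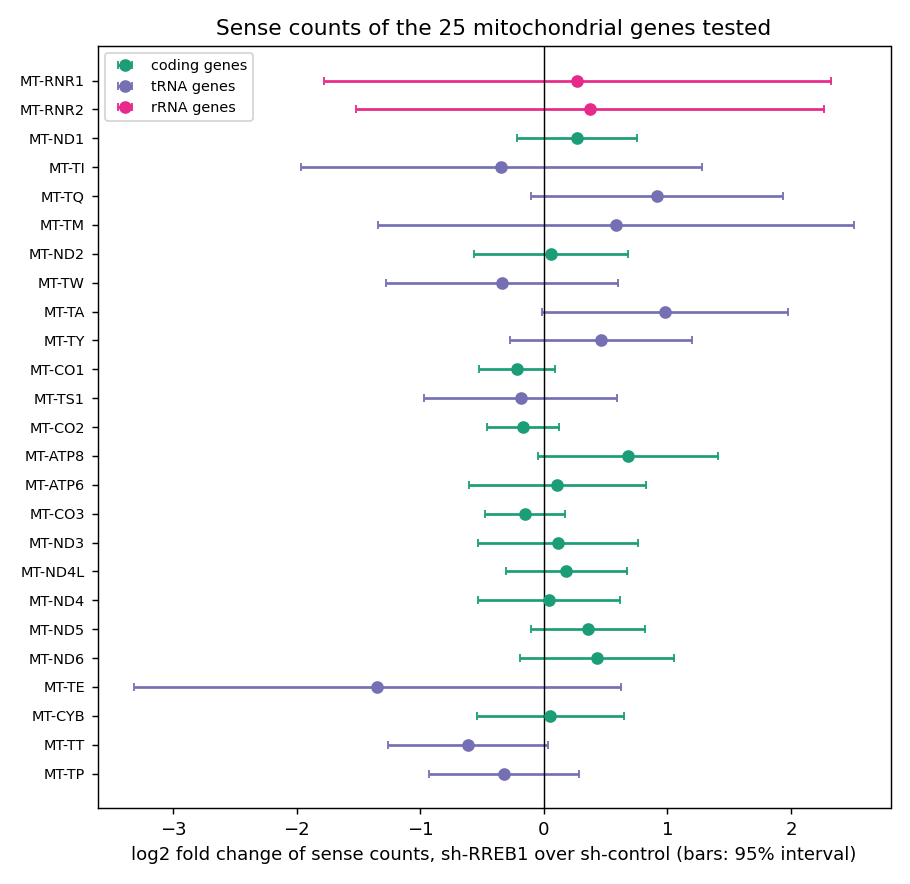
Log2 fold change of sh-RREB1 over sh-control in sense counts for the tested coding, tRNA and rRNA genes of the mitochondrial genome, with bars for the 95% interval of the edgeR fit. For each of the 25 genes the interval covers 0, from MT-CO1 at −0.22 to MT-ATP8 at 0.68 among the coding genes.

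The shares of the coding reads taken by each complex overlapped between the groups, through sh-control replicate 1. The 3 complex IV genes held 79.8%, 85.5% and 84.4% of the coding reads in sh-control and 79.6%, 81.8% and 76.9% in sh-RREB1 (exact permutation p = 0.2). The 7 complex I genes held 12.4%, 9.56% and 10.4% against 12.7%, 11.7% and 15.6% (exact permutation p = 0.2), *MT-ATP8* with *MT-ATP6* held 3.52%, 2.05% and 2.18% against 3.52%, 2.74% and 3.52% (p = 0.3, exact), and *MT-CYB* held 4.31%, 2.91% and 2.98% against 4.15%, 3.79% and 3.97% (p = 0.4, exact). Without that library, left out because it stood apart, the groups did not overlap in any of the 4 measures, which is given as a description. The 4 shares make up all coding reads, so they are not separate results. The differences of sh-RREB1 over sh-control went from −3.77 to −5.51 percentage points for complex IV, from 2.52 to 3.33 for complex I, from 0.68 to 1.15 for *MT-ATP8* with *MT-ATP6* and from 0.57 to 1.03 for *MT-CYB*.

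The tRNA genes were almost invisible in the sense direction. The 22 genes together had 362, 325 and 374 reads in sh-control against 344, 263 and 169 in sh-RREB1, 0.00155%, 0.00114% and 0.00113% of gene reads against 0.00145%, 0.00101% and 0.00138%. The 14 plus-strand tRNA genes, which sit between plus-strand mRNAs and rRNAs, had 304 reads over the 6 libraries, and the 8 minus-strand genes had 1533. A tRNA gene here is 59 to 75 bases long, and a read that also covers the neighbouring gene on the same strand was not assigned, so these counts are not tRNA levels. Sense reads were 0 in every library for 9 tRNA genes, which allows up to 3 reads per library by counting error alone, and between 1 and 9 in total for *MT-TF*, *MT-TV* and *MT-TN*, so 12 tRNA genes were not tested.

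Of the 10 tRNA genes tested, 0 passed either threshold with edgeR, 0 had an unadjusted p below 0.05 and 0 had an adjusted p below 0.05 with DESeq2. *MT-TP*, the proline tRNA gene on the minus strand and the only one with a mean of at least 100 sense reads per library, had 235, 162 and 180 reads in sh-control against 158, 122 and 81 in sh-RREB1. In CPM these were 10.2, 5.96 and 5.61 against 6.37, 4.66 and 6.42, a log2 fold change of −0.32 (SE 0.27, adjusted p = 0.442) with overlapping groups. The other 9 tested tRNA genes had 0 to 85 reads per library and log2 fold changes between −1.35 and 0.98. The groups did not overlap for *MT-TA*, higher in sh-RREB1, and for *MT-TT*, lower in sh-RREB1, at 5 to 14 and 12 to 44 reads per library. Over all genes tested 41.1% had groups that did not overlap.

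The rRNA genes varied more within the groups than any coding gene did. *MT-RNR1*, the small-subunit rRNA, stood at 136, 11.3 and 14.2 CPM across sh-control against 24.1, 50.4 and 121 CPM across sh-RREB1. *MT-RNR2*, the large-subunit rRNA, stood at 1414, 138 and 180 CPM against 349, 537 and 1357 CPM. The highest library was 12.03 times the lowest for *MT-RNR1* and 10.3 times for *MT-RNR2*, and both were highest in sh-control replicate 1. The kit used for these total RNA libraries includes a step that removes rRNA, whose part in this spread was not tested. The log2 fold changes were 0.27 (SE 0.91, adjusted p = 0.868) and 0.37 (SE 0.83, adjusted p = 0.799), and without sh-control replicate 1 they were 2.31 (adjusted p = 0.0173) and 2.21 (adjusted p = 0.0123). The ratio of *MT-RNR2* to *MT-RNR1* reads was steadier, at 10.4, 12.2 and 12.7 in sh-control and 14.5, 10.7 and 11.2 in sh-RREB1.

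Reads on the opposite strand of the mitochondrial mRNAs made up a larger share in the sh-RREB1 libraries. Over the 13 coding genes together, 4.89%, 5.57% and 6.27% of the reads lay on the opposite strand in sh-control and 6.87%, 8.32% and 8.84% in sh-RREB1, so every sh-RREB1 library was above every sh-control library. The means were 5.58% ± 0.69 (SD, n = 3) and 8.01% ± 1.02 (SD, n = 3), a difference of 2.43 percentage points with a two-sided exact permutation p of 0.1, the smallest that 3 against 3 allows. Without sh-RREB1 replicate 3 the difference was 2.02 percentage points. The median share over the 13 genes was 3.03%, 3.45% and 4.27% against 6.002%, 5.71% and 6.05%. For 10490 nuclear coding genes with at least 600 sense reads in total the median share on the opposite strand was 0.137%, 0.191% and 0.182% in sh-control and 0.175%, 0.231% and 0.210% in sh-RREB1, with overlapping groups, and with that share taken off the pooled difference was 2.399 percentage points. The part of strand errors in library preparation was not tested beyond this subtraction.

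**Figure D3:**
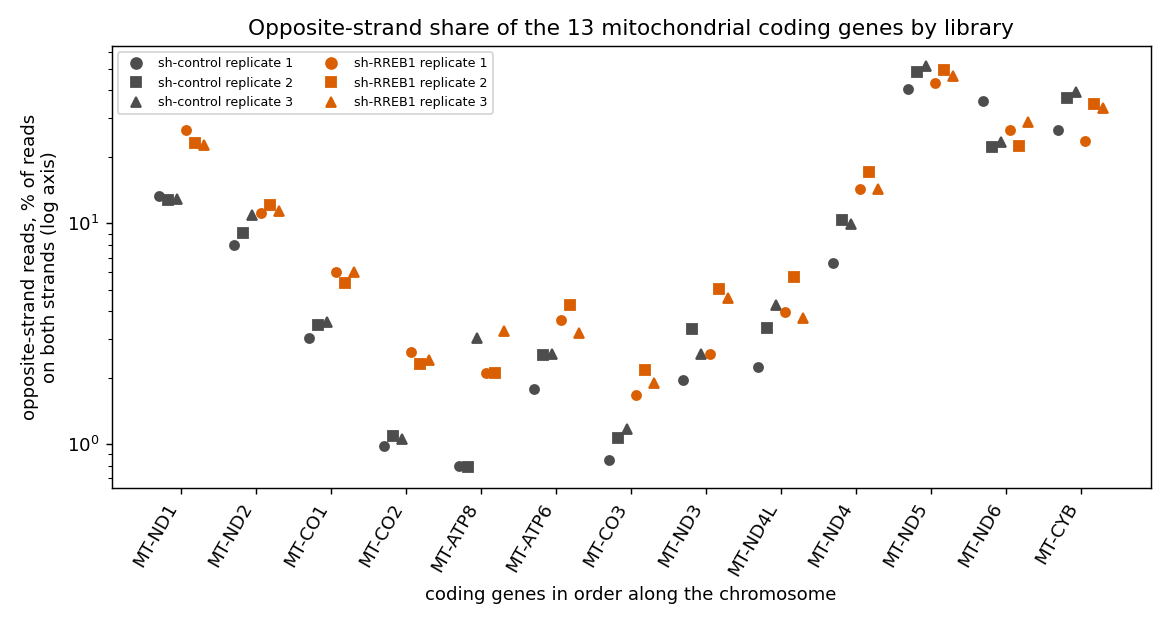
Share of reads on the opposite strand of each coding gene of the mitochondrial genome, in percent on a log axis, with a point per library. For MT-ND1, MT-ND2, MT-CO1, MT-CO2, MT-ATP6, MT-CO3 and MT-ND4 the sh-RREB1 points all lie above the sh-control points, while for MT-ND5, MT-ND6 and MT-CYB, the 3 genes with the highest mean shares, they overlap.

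The shares differed widely between genes. *MT-ND5* (40.5%, 48.5% and 51.6% in sh-control, 43.2%, 49.5% and 46.4% in sh-RREB1) and *MT-CYB* (26.5%, 36.9% and 39.5% against 23.7%, 34.8% and 33.4%) had the highest shares among the plus-strand genes, and they flank *MT-ND6* and *MT-TE*, which are read from the minus strand. *MT-ND6* had 35.7%, 22.2% and 23.3% in sh-control and 26.5%, 22.4% and 28.8% in sh-RREB1. The groups overlapped for each of these 3 genes. The other 10 plus-strand coding genes pooled, a division made after the values were seen and given as a description, stood at 2.38%, 2.73% and 2.87% in sh-control and 4.64%, 4.89% and 5.05% in sh-RREB1.

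For 7 of the 13 coding genes every sh-RREB1 share lay above every sh-control share, and for 0 the reverse held. Among the 9974 genes with at least 10 reads in total on each strand, 14.6% had every sh-RREB1 share above every sh-control share. In either direction, 25.6% had groups that did not overlap. The 7 genes lay well above that minimum, and the percentage among genes of like depth was not computed. The coding genes share the same libraries and long precursor RNAs, so here and in the models that follow they are not separate results. *MT-ND1*, beside the rRNA genes, went from 13.3%, 12.8% and 12.9% in sh-control to 26.6%, 23.1% and 22.7% in sh-RREB1, the widest gap in percentage points. *MT-CO2* went from 0.981%, 1.09% and 1.06% to 2.62%, 2.31% and 2.41%. *MT-ND4* went from 6.59%, 10.4% and 9.92% to 14.4%, 17.1% and 14.3%. These 3 genes differed in level and position, and in each the sh-RREB1 libraries were close together. *MT-CO1* stood at 3.03%, 3.45% and 3.57% against 6.002%, 5.38% and 6.05%, *MT-CO3* at 0.845%, 1.07% and 1.17% against 1.67%, 2.16% and 1.88%, and *MT-ATP6* at 1.77%, 2.54% and 2.57% against 3.66%, 4.26% and 3.20%. *MT-ND2* was only just apart, at 7.98%, 9.06% and 10.9% against 11.1%, 12.1% and 11.4%.

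For the short genes the groups overlapped. *MT-ND3* stood at 1.961%, 3.31% and 2.57% in sh-control and 2.56%, 5.03% and 4.596% in sh-RREB1, *MT-ND4L* at 2.23%, 3.36% and 4.27% against 3.98%, 5.71% and 3.74%, and *MT-ATP8* at 0.796%, 0.784% and 3.04% against 2.10%, 2.10% and 3.24%.

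The ratio of opposite-strand to sense reads was then tested in a model over both strands of every gene, chosen after the shares were seen. In that model 5.67% of 9974 genes had an adjusted p below 0.05. Of the 24 mitochondrial genes tested, 4 did: *MT-ND1*, *MT-CO2* and *MT-ND4* among the 13 coding genes and *MT-TE* among the 9 tRNA genes. The log2 change of the ratio was 1.08 (SE 0.23, adjusted p = 0.00750) for *MT-ND1*, 1.25 (SE 0.28, adjusted p = 0.0108) for *MT-CO2* and 0.89 (SE 0.26, adjusted p = 0.0421) for *MT-ND4*. It was positive for 10 of the 13 coding genes and negative for *MT-ND5* (−0.03), *MT-ND6* (−0.07) and *MT-CYB* (−0.24). *MT-ND1* kept an adjusted p below 0.05 without any 1 of the 6 libraries, at most 0.0487. *MT-CO2* lost it without sh-RREB1 replicate 3 (0.0831), sh-control replicate 2 (0.0593) or sh-control replicate 3 (0.0613), and *MT-ND4* lost it without any 1 of the libraries (0.0543 to 0.172). With the nuclear median share taken off the opposite-strand counts, the log2 change of the ratio was 1.09 (adjusted p = 0.0321) for *MT-ND1*, 1.38 (adjusted p = 0.0662) for *MT-CO2* and 0.90 (adjusted p = 0.128) for *MT-ND4*.

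As levels, scaled by the sense library sizes, the opposite-strand reads of 6 of the 13 coding genes rose in sh-RREB1 at an adjusted p below 0.05, where 4.98% of 15673 genes passed. The log2 fold change was 1.33 (SE 0.22, adjusted p = 0.00232) for *MT-ND1*, 1.09 (SE 0.19, adjusted p = 0.00294) for *MT-CO2* and 0.999 (SE 0.18, adjusted p = 0.00418) for *MT-ND4*. It was 0.77 (SE 0.17, adjusted p = 0.0162) for *MT-CO3*, 0.62 (SE 0.16, adjusted p = 0.0355) for *MT-CO1* and 0.92 (SE 0.24, adjusted p = 0.0357) for *MT-ATP6*. *MT-ND5* (0.37, adjusted p = 0.326), *MT-ND6* (0.36, adjusted p = 0.588) and *MT-CYB* (−0.08, adjusted p = 0.869) did not pass. *MT-ND1* and *MT-CO2* passed without any 1 of the libraries. *MT-ND4* did not pass without sh-RREB1 replicate 3 (0.0507) or sh-control replicate 2 (0.0604), nor *MT-CO3* without either of these (0.0849 and 0.104) or sh-control replicate 3 (0.0622). *MT-CO1* passed only without sh-RREB1 replicate 2 or sh-control replicate 1, and its adjusted p was 0.0770 to 0.170 without any of the other 4, while *MT-ATP6* passed only without sh-control replicate 1 and stood at 0.0642 to 0.185 without each of the other 5. Per kilobase the mean opposite-strand level of *MT-ND1* was 10.1 CPM in sh-control and 25.3 CPM in sh-RREB1, that of *MT-CO2* 15.8 and 33.6 CPM, and that of *MT-CYB*, the highest of the coding genes in both groups, 108 and 102 CPM.

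**Figure D4:**
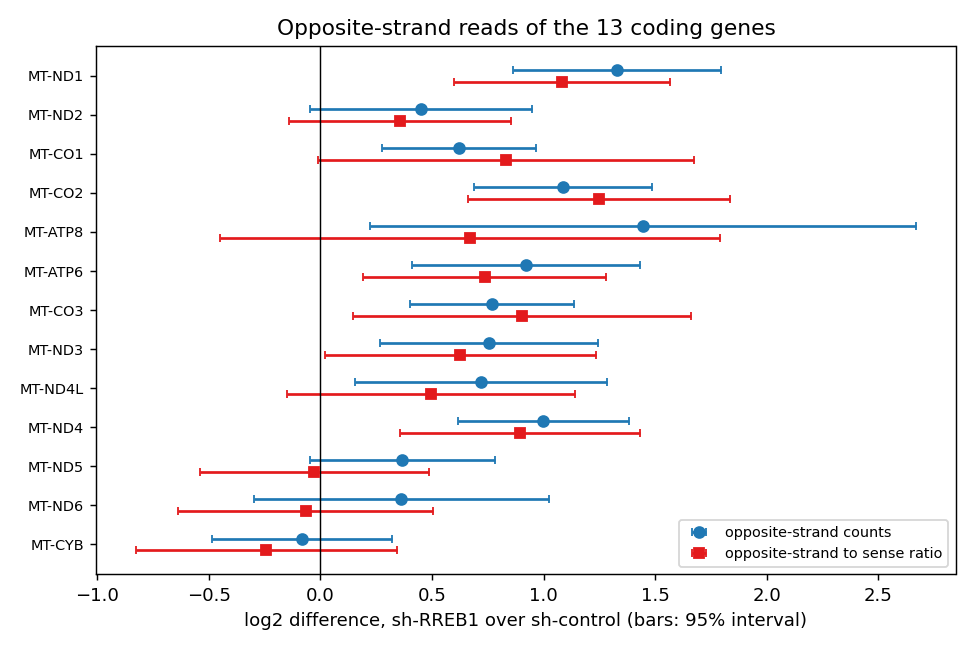
Log2 difference of sh-RREB1 over sh-control for the opposite-strand reads of the 13 coding genes, as levels (circles) and as the ratio to sense reads (squares), with bars for the unadjusted 95% intervals of the edgeR fits. MT-ND1 (1.33 and 1.08), MT-CO2 (1.09 and 1.25) and MT-ND4 (0.999 and 0.89) lie to the right in both measures, while the intervals of MT-ND5, MT-ND6 and MT-CYB cover 0.

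Together the 22 tRNA genes had more reads on the opposite strand than on their own, 1739, 2281 and 2082 reads in sh-control against 3333, 2042 and 947 in sh-RREB1. Most of these reads lay on the minus-strand genes *MT-TP*, *MT-TS1*, *MT-TY* and *MT-TQ*. By contrast, *MT-TA*, *MT-TM* and *MT-TT* had fewer opposite-strand than sense reads in every library. A plus-strand read across a minus-strand tRNA gene counts as sense for the mRNA it reaches and as opposite for the tRNA gene, because the strands were counted separately. *MT-TE* was the tRNA gene that differed. Its opposite strand, the lower-case letters of the plus-strand sequence printed earlier without the last 4, which belong to neither gene, had 6, 7 and 6 reads in sh-control against 49, 37 and 16 in sh-RREB1, while *MT-TE* itself had 7, 5 and 17 sense reads against 0, 3 and 5. Per 1000 *MT-CYB* sense reads the opposite-strand reads numbered 0.672, 1.33 and 1.04 in sh-control and 7.09, 5.69 and 4.84 in sh-RREB1, 5.79 times higher (exact permutation p = 0.1). All sh-RREB1 libraries were above all sh-control libraries, at counts below 50 reads per library.

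In the fits *MT-TE* had a log2 fold change of 2.73 in its opposite-strand level (SE 0.39, adjusted p = 0.000820), which passed without any 1 of the libraries, and of 4.09 in the ratio of opposite-strand to sense reads (SE 0.87, adjusted p = 0.00675), which did not pass without sh-control replicate 3 (0.0539). Of the 11 tRNA genes with enough opposite-strand reads for the level test, *MT-TE* was the only one with an adjusted p below 0.05. *MT-TY*, the tyrosine tRNA gene upstream of *MT-CO1* on the minus strand, did not pass in its opposite-strand level (0.44, adjusted p = 0.232) or in the ratio (0.01, adjusted p = 0.993). It had 2.51, 3.75 and 4.07 opposite-strand reads per 1000 *MT-CO1* sense reads in sh-control against 5.09, 5.65 and 5.11 in sh-RREB1 (exact permutation p = 0.1). *MT-TS1*, downstream of *MT-CO1*, had 9.39, 6.90 and 7.51 against 17.2, 5.15 and 6.81 on the same scale, with sh-RREB1 replicate 1 alone at the top and overlapping groups (exact permutation p = 1). *MT-TP*, downstream of *MT-CYB*, had 75.1, 260 and 173 per 1000 *MT-CYB* sense reads against 264, 177 and 161, also overlapping (exact permutation p = 0.6). *MT-TQ*, on the minus strand between *MT-TI* and *MT-TM*, had 82, 89 and 115 opposite-strand reads in sh-control against 51, 65 and 30 in sh-RREB1, with a log2 change of the ratio of −1.42 (adjusted p = 0.0586).

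On the rRNA genes the opposite strand followed single libraries. It held 1465, 44450 and 1770 reads in sh-control against 31831, 1161 and 3232746 in sh-RREB1, or 3.95%, 91.6% and 22.1% of their reads against 77.5%, 7.02% and 99.4%. The level fit gave *MT-RNR2* a log2 fold change of 7.03 (adjusted p = 0.0422), which was 0.41 (adjusted p = 0.910) without sh-RREB1 replicate 3, so no direction is read from it.

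The nuclear genes that act on mitochondrial DNA and RNA were given by function from 93 listed genes, all of which were tested. At the study's thresholds 2 of them (2.15%, against 3.41% of all genes tested) passed and both rose, *HSD17B10* and *POLG*. At an adjusted p below 0.05 13 rose and 13 fell, together 27.96% of the list against 19.6% of all genes tested, with a median log2 fold change of −0.06 against 0.01 over all genes tested. With the offset for GC content and length 10 of the 93 rose and 8 fell, against 2437 and 2722 of the 23304 genes tested. With that offset the share of the list that passed was thus no longer above the share of all genes tested, but below it. The single lists that follow hold 6 to 22 genes, too few to read their shares against that of all genes. *HSD17B10*, a subunit of mitochondrial RNase P and a dehydrogenase of isoleucine breakdown, stood at 9.22, 16.3 and 23.1 CPM across sh-control against 77.5, 128 and 102 CPM across sh-RREB1 (log2 fold change 2.65, SE 0.32, adjusted p = 0.00289). All its sh-RREB1 values were above all its sh-control values, where 41.1% of all genes tested had groups that did not overlap. The change in *HSD17B10* was 2.56 with the offset for GC content and length. Without sh-control replicate 2 or any 1 of the sh-RREB1 libraries 0 of the 93 genes passed the study's thresholds, and without sh-control replicate 1 there were 6, while *HSD17B10* and *POLG* kept an adjusted p below 0.05 without any 1 of the 6 libraries (at most 0.0300 and 0.0420). The other members of the tRNA excision list of 6 genes did not pass, among them *TRMT10C*, the methyltransferase subunit of RNase P (−0.43, adjusted p = 0.0687), and *ELAC2*, which cuts the 3′ ends of tRNAs (0.28, adjusted p = 0.340).

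In the transcription list of 10 genes 2 rose and 0 fell, 20% of the list against 19.6% of all genes tested. *POLRMT*, the mitochondrial RNA polymerase, stood at 3.13, 7.99 and 11.8 CPM across sh-control against 21.0, 30.9 and 22.6 CPM across sh-RREB1 (1.69, SE 0.40, adjusted p = 0.0211), but with the offset for GC content and length the change was 0.25 (adjusted p = 0.234). *POLRMT* also lost the call without sh-RREB1 replicate 2 (0.0684), sh-RREB1 replicate 3 (0.0639) or sh-control replicate 2 (0.0816). *TFAM*, the packaging and promoter factor (−0.20, adjusted p = 0.463), and *TEFM*, the elongation factor (−0.14, adjusted p = 0.519), did not pass. The other riser, *MRPL12*, had 0, 0 and 1 reads against 10, 4 and 2 and overlaps another annotated gene, so its count is uncertain.

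In the replication and nucleoid list of 10 genes 4 rose and 2 fell, 60% of the list against 19.6% of all genes tested. *POLG*, the catalytic subunit of the mitochondrial DNA polymerase, stood at 25.4, 40.0 and 42.7 CPM across sh-control against 74.8, 83.8 and 69.9 CPM across sh-RREB1 (1.08, SE 0.19, adjusted p = 0.00856), and at 0.67 (adjusted p = 0.000832) with the offset, below the study's fold threshold. *MGME1*, a nuclease of mitochondrial DNA ends, fell by 0.62 on the log2 scale (adjusted p = 0.00570). *TOP1MT*, the mitochondrial topoisomerase I, rose by 0.97 (adjusted p = 0.0119), which was 0.27 (adjusted p = 0.142) with the offset and 0.0625 in adjusted p without sh-control replicate 2.

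In the decay list of 7 genes, which holds the enzymes that clear opposite-strand RNA, 0 rose and 2 fell, a count too small to set against the 19.6% of all genes tested. *PNPT1* stood at 164, 150 and 145 CPM across sh-control against 122, 109 and 114 CPM across sh-RREB1 (−0.41, SE 0.10, adjusted p = 0.0258). *SUPV3L1* stood at 85.1, 80.7 and 74.3 CPM against 61.6, 62.2 and 61.5 CPM (−0.37, SE 0.11, adjusted p = 0.0391). The groups did not overlap for either gene, which held for 41.1% of all genes tested. With the offset for GC content and length neither passed, at −0.15 (adjusted p = 0.224) for *PNPT1* and −0.16 (adjusted p = 0.177) for *SUPV3L1*. *SUPV3L1* did not pass without any 1 of the libraries (0.0516 to 0.139), and *PNPT1* did not without sh-RREB1 replicate 3 (0.108) or sh-control replicate 2 (0.0854). Whether these levels bear on the opposite-strand reads was not tested.

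In the mRNA stability and polyadenylation list of 14 genes 2 rose and 4 fell, 42.9% of the list against 19.6% of all genes tested. *LRPPRC*, which holds mitochondrial mRNAs, stood at 658, 568 and 550 CPM across sh-control against 452, 436 and 448 CPM across sh-RREB1 (−0.41, SE 0.10, adjusted p = 0.0267), and at −0.26 (adjusted p = 0.0791) with the offset. The *LRPPRC* call held only without sh-control replicate 1 or sh-control replicate 3, with an adjusted p of 0.0536 to 0.107 without each of the others. Its partner *SLIRP* stood at 94.5, 117 and 100 CPM against 98.0, 113 and 101 CPM and did not pass (adjusted p = 0.993). *FASTKD5*, needed for mRNA ends that no tRNA marks, fell by 0.52 (adjusted p = 0.0122) and by 0.37 with the offset, and did not pass without sh-RREB1 replicate 3 (0.0695) or sh-control replicate 2 (0.0584). *PTCD3*, a protein of the mitochondrial ribosome, fell by 0.38 (adjusted p = 0.0264), or by 0.17 with the offset (adjusted p = 0.139), and did not pass without sh-RREB1 replicate 3 (0.122), sh-control replicate 2 (0.0822) or sh-control replicate 3 (0.0517).

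The genes that act on the tRNAs moved in both directions. In the tRNA modification list of 16 genes 2 rose and 2 fell, 25% of the list against 19.6% of all genes tested. Among them were *TRMT2B*, a methyltransferase of tRNA and rRNA (−0.75, adjusted p = 0.00705, and −0.74 with the offset), and *QTRT1*, the catalytic subunit of the queuosine transferase (1.46, adjusted p = 0.0138, and 0.88 with the offset). *MTO1*, which modifies the wobble uridine, stood at 69.0, 70.1 and 69.2 CPM across sh-control against 52.8, 50.9 and 51.6 CPM across sh-RREB1 (−0.42, adjusted p = 0.0235), and at −0.27 (adjusted p = 0.0377) with the offset. *QTRT1* did not pass without sh-control replicate 2 (0.0606), nor *MTO1* without sh-RREB1 replicate 3 (0.0995), sh-control replicate 2 (0.0888) or sh-control replicate 3 (0.0607). The aminoacylation list of 22 genes held mitochondrial aminoacyl-tRNA synthetases and the amidotransferase subunits *GATB*, *GATC* and *QRSL1*. In it 0 rose and 2 fell, 9.09% against 19.6% of all genes tested, with a median over the list of −0.01. Among those that fell was *IARS2*, the isoleucine enzyme (−0.45, adjusted p = 0.0158). With the offset *IARS2* stood at −0.21 (adjusted p = 0.155). It did not pass without sh-RREB1 replicate 3 (0.0813) or sh-control replicate 2 (0.0610).

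Of the 8 nuclear activators of mitochondrial genes 2 rose and 1 fell, 37.5% against 19.6% of all genes tested. *PPRC1*, a coactivator related to PGC-1, stood at 28.4, 37.1 and 39.9 CPM across sh-control against 63.8, 77.99 and 58.3 CPM across sh-RREB1 (0.93, adjusted p = 0.00890, and 0.41 with the offset, adjusted p = 0.00820). *ESRRA*, the oestrogen-related receptor alpha, rose by 1.46 (adjusted p = 0.0190), which was 0.26 (adjusted p = 0.173) with the offset, and did not pass without sh-RREB1 replicate 2 (0.0634), sh-RREB1 replicate 3 (0.0557) or sh-control replicate 2 (0.0620). *GABPB1*, a subunit of the factor also called NRF2, fell by 0.43 (adjusted p = 0.0398), which was −0.18 (adjusted p = 0.177) with the offset, and it passed only without sh-control replicate 1 when single libraries were left out.

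**Figure D5:**
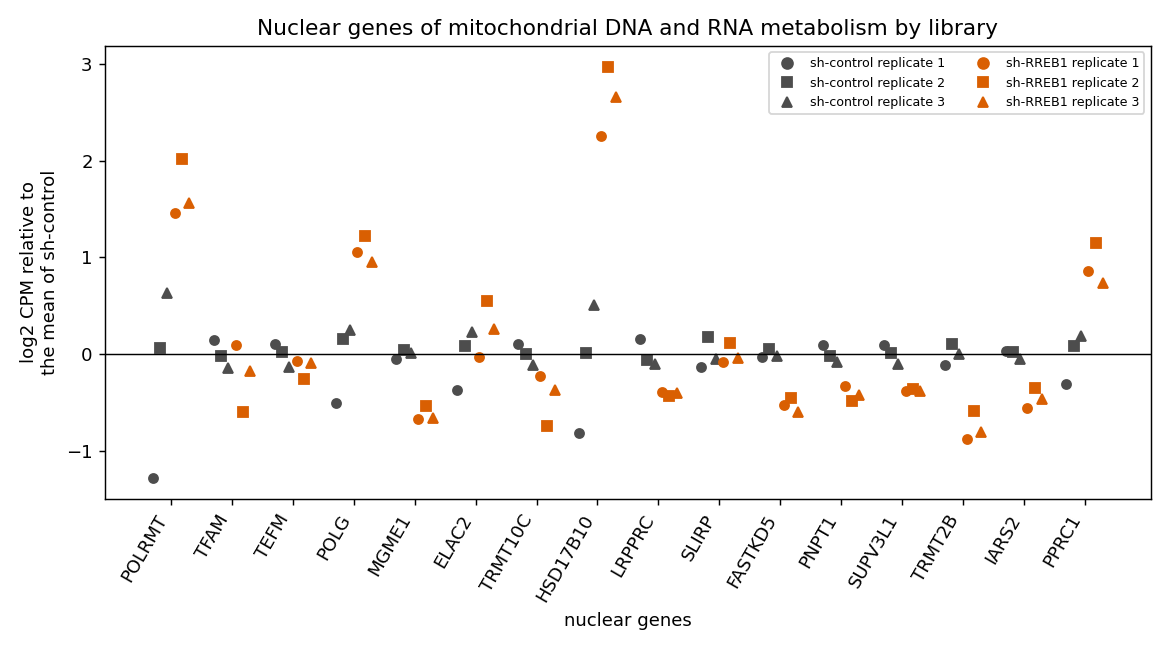
Level of nuclear genes that act on mitochondrial DNA and RNA in each library, as log2 CPM relative to the mean of the sh-control libraries, with a point per library. The 3 sh-RREB1 points of HSD17B10 lie far above its sh-control points, those of POLRMT, POLG and PPRC1 lie above and those of PNPT1, SUPV3L1, LRPPRC, MGME1, FASTKD5, TRMT2B and IARS2 lie below, with no correction for GC content.

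Nuclear copies of mitochondrial sequence took few of the reads. Of 399 copies by symbol, 73 had a read, and together they had 1339, 783 and 847 reads in sh-control against 913, 875 and 464 in sh-RREB1, between 0.433% and 0.646% of the reads on the mitochondrial coding genes. The 3 with the most reads lie side by side on chromosome 1 and were *MTATP6P1* (chr1:633696-634376) with 3231 reads in total, *MTCO1P12* (chr1:631074-632616) with 539 and *MTND2P28* (chr1:629640-630683) with 424. Reads that fit both a copy and the mitochondrial chromosome equally well were counted for neither.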

How the data were processed

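Total RNA of 6 HEK293T libraries (3 sh-control, 3 sh-RREB1) was prepared with a stranded Illumina kit, and the authors aligned the reads with STAR to hg38 with a Gencode annotation. They deposited raw read counts per gene for both strands together, for the opposite strand and for the sense strand. STAR counts a read only where it aligns uniquely and overlaps 1 gene on the strand counted, so bases shared by genes, and reads that span neighbouring genes, are left out. A merged count table was not used here.

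Symbols with several identifiers were collapsed to the identifier with the most reads, as in the study, and 55767 symbols remained. Sense counts of 23304 genes with at least 10 reads in total were fitted with edgeR 4.0.16 in R 4.3.3 (quasi-likelihood test, TMM scaling, condition only, Benjamini-Hochberg adjustment over all genes), and DESeq2 1.42.0 was an alternative. CPM used TMM-scaled library sizes, and gene lengths came from a later Gencode release. Genes were called at the study's thresholds, and an adjusted p below 0.05 was a second rule. Single values per library were compared by two-sided exact permutation tests. The strand ratio (library, strand and strand by condition) and opposite-strand level (scaled by sense library sizes) models were chosen after seeing the data. Scripts were tested on simulated data. The genes and lists were chosen with earlier results of these data known. Named nuclear genes were 9 set by name, those called, and in each list up to 3 with the smallest adjusted p below 0.05. The result of 1 gene that this rule names is not reported here. The limits given for read counts cover counting error only. The intervals of the edgeR fits take in counting error and the spread between these libraries, which may be technical.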

Additional observations from a re-analysis of the deposited data

Results flagged for a closer look

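Opposite-strand reads on the mitochondrial rRNA genes numbered 3232746 in sh-RREB1 replicate 3, against 1161 to 44450 in the other 5 libraries, a signal in counts that the sense comparison does not use. In the same library 52.1% of aligned reads fell at more than 1 position, against 3.66% to 7.63% in the others.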

How the results depend on the processing

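No coding and no tRNA gene passed the study's thresholds under any of the alternatives fitted, leave-one-out fits included. At an adjusted p below 0.05 the coding genes passing went from 0 to 2 with the GC content and length offset and to 0 to 3 with single libraries left out, and the tRNA genes from 0 to between 0 and 1. The median coding log2 fold change of 0.11 ranged from −0.13 to 0.45 with single libraries left out. The share of gene reads on coding genes differed by −0.081 to 0.068 percentage points when single libraries were left out. The 2 nuclear genes called became 9 with DESeq2, 10 with a minimum of 1 read, 4 with no scaling, 1 with both strands together, 1 with the GC content and length offset, and 0 to 6 with single libraries left out. Mitochondrial genes with a changed strand ratio went from 4 to between 1 and 5 with single libraries left out and to 2 with the nuclear share taken off, and those with a changed opposite-strand level from 8 to between 3 and 8. The causes were not tested. Of 386 log2 fold changes of single mitochondrial genes under alternatives, 364 kept their direction, 22 reversed and 15 newly had an adjusted p below 0.05. The reversed genes were not called, and their values with single libraries left out ranged from −0.53 to 2.31 for *MT-RNR1*, −0.38 to 2.21 for *MT-RNR2*, −0.84 to 0.12 for *MT-TI*, −0.15 to 0.43 for *MT-ND2*, −0.48 to 0.060 for *MT-TS1*, −0.13 to 0.63 for *MT-ATP6*, −0.13 to 0.45 for *MT-ND3*, −0.15 to 0.41 for *MT-ND4* and −0.17 to 0.46 for *MT-CYB*, while *MT-TP* stood at 0.55 with both strands together. Of the tRNA genes 12 had fewer than 10 sense reads in total and gave no test.

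The replicate numbers were checked as a pairing. Deviations from the group means of same-numbered libraries correlated at 0.50, 0.43 and −0.27, and not every library correlated best with its own number, so the numbers were not taken to pair the libraries. With the replicate number as a block the passing coding genes numbered 1, or 5 with the GC content and length offset, where 1 tRNA gene passed and the median coding log2 fold change was 0.37. The nuclear genes called numbered 10 with the block and 1 with the block and the offset, the changed strand ratios 9 and the changed opposite-strand levels 11.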
